A study of Mus musculus with 41 samples.

Results

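Red cells are made in the marrow, and 9 genes of that pathway were followed in the RNA of mouse tibiae: the adult globin genes Hba-a1, Hba-a2, Hbb-bs and Hbb-bt, and Alas2, Slc4a1, Klf1, Epor and Tfrc. They were taken by gene symbol from a count table of 43346 genes, each symbol matched 1 row, and all 9 were among the 19292 genes that passed the filter on low counts. The bones came from 41 female INK-ATTAC mice on a C57BL/6 background. Every mouse, young or old, carries this transgene, in which the promoter of Cdkn2a (p16Ink4a) drives a caspase that the drug AP20187 (AP) switches on. There were 12 young mice, given in the labels as 6 to 12 months old and marked as vehicle. There were 13 old mice given vehicle (old + vehicle) and 16 old mice given AP at 10 mg per kg of body mass (old + AP), by repeated injection for 4 months from the age of 20 months. The comparison of old + vehicle with young asks what differs with age, and that of old + AP with old + vehicle asks what differs once cells using the p16Ink4a promoter are targeted.

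Adult hemoglobin is a tetramer of alpha chains, encoded by Hba-a1 and Hba-a2, and beta chains, encoded by Hbb-bs and Hbb-bt in this strain background. Red cell precursors respond to erythropoietin through its receptor Epor, take up iron through the transferrin receptor Tfrc, and start heme synthesis with Alas2, the form of 5-aminolevulinate synthase particular to erythroid cells. The transcription factor Klf1 binds CACCC elements in globin and other erythroid genes. Slc4a1 encodes band 3, the anion exchanger of the red cell membrane. Globin mRNA is held by red cell precursors in the marrow and by reticulocytes, the young red cells without a nucleus that circulate in blood.

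Marrow elements were spun out of the bones ahead of RNA extraction, and reads of red cell genes were present in every library. The total per mouse ranged from 37028959 to 75942717 counts (median 47774880). The 4 adult globin genes took between 0.161% of all counts, in old + vehicle mouse 16, and 2.30%, in young mouse 39. Bone was also there by its markers: the summed level of 13 osteoblast and osteocyte markers ranged from 7008 to 89430.0 CPM over all mice (CPM are counts scaled to a common library size). Skeletal muscle was there too, with 14 muscle markers summing to between 9797 and 150532 CPM. Cdkn2a had 0.596 CPM in young, 2.78 CPM in old + vehicle and 1.75 CPM in old + AP mice on average, and its difference between the old groups (log2 fold change -0.67, SE 0.37, adjusted p = 0.265) did not pass the test.

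The 2 copies of each globin gene are almost the same in sequence, which bears on every value given for a single copy. In the reference annotation of this build (GENCODE M21, GRCm38), the coding sequences of Hba-a1 and Hba-a2 are 426 bases long and differ at 1 base. Those of Hbb-bs and Hbb-bt are 441 bases long and also differ at 1 base, and a run of 416 bases is the same in both. A read inside such a run fits both copies equally well, and how the authors' counting treated it is not given in the sources used here. The stretches of 61 coding bases around these differences are shown 5′ to 3′, with the differing base in capitals, because they are the only coding positions that tell the copies apart. The changes are C381T from Hba-a1 to Hba-a2 and C417T from Hbb-bs to Hbb-bt, counted from 1 at the first base of the start codon.
Hba-a1: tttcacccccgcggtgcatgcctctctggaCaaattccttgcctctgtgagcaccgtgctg
Hba-a2: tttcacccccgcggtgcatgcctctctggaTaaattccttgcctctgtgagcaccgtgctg
Hbb-bs: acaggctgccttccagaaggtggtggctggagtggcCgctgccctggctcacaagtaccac
Hbb-bt: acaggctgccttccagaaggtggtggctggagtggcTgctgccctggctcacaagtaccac

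Promoter windows from RefSeq (GRCm38.p6, 250 bases before to 50 after each start) were found for 8 of the 9 members. Slc4a1 had none. On both strands, 3 short promoter motifs were searched for. They were CACCC, the core of the Klf1 element, AGATAA, which the erythroid factor Gata1 binds, and CCAAT, a common promoter element. A CACCC match lay in the windows of 8 members, and 57.5% of all 32851 windows held one. The longer form, CCACACCC, holds CACCC and was found only in the window of Hbb-bs, against 3.56% of all windows. AGATAA was found in the windows of Hbb-bs, Alas2 and Epor, against 11.2% of all windows, and CCAAT in those of 6 members, against 37.4%. For 4 members that moved together among mice, the bases just before the first annotated base are printed on the strand of the gene. Matches to any of the motifs are in capitals. These stretches are parts of the windows. For Hbb-bs the first annotated base lies upstream of the RefSeq start, and its CACCC, CCACACCC and CCAAT matches lie outside the printed bases. The CACCC matches of Alas2 also lie outside its printed bases.
Hba-a2, chr11:32296369-32296488, plus strand: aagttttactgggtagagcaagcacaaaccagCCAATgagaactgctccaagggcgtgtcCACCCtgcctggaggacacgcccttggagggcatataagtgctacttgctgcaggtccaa
Hbb-bs, chr7:103828097-103828178, minus strand: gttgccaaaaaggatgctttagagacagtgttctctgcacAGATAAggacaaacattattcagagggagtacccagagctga
Hbb-bt, chr7:103813997-103814116, minus strand: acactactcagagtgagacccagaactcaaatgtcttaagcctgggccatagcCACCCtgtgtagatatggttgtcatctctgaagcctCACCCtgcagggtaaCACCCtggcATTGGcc
Alas2, chrX:150547255-150547374, plus strand: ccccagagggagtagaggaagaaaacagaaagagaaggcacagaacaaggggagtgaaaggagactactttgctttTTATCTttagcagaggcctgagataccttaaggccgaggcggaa

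To compare the genes with each other, counts were divided by the length of each gene's exons and by the library size (RPKM). In young mice the median level fell from 4772 RPKM for Hbb-bs through 2892 RPKM for Hba-a1, 2349 RPKM for Hbb-bt and 1709 RPKM for Hba-a2 to 149 RPKM for Alas2. Slc4a1 had 104 RPKM, Tfrc 39.9 RPKM, Klf1 12.6 RPKM and Epor 11.5 RPKM. The globin genes stood far above the other members. Hbb-bs was above Hba-a1 in 41 of 41 mice Hba-a2 was above Alas2 in 41 of 41, and Tfrc was above Klf1 in 41 of 41. The other neighbours in this order changed places in some mice. Klf1 was above Epor in 33 of 41 mice, with a median log2 ratio of 0.21 and a range from -0.51 to 0.59. Hba-a1 and Hbb-bt changed places between groups: Hba-a1 was the higher of the pair in 11 of 12 young and 10 of 13 old + vehicle mice but in 4 of 16 old + AP mice.

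Of the 4 globin genes, 3 passed the test as lower in old + vehicle than in young mice. The alpha globin genes passed it in old + AP against young mice. By sign all 4 were lower in both comparisons. Hba-a1, the first alpha globin copy, on chromosome 11 from base 32283511 to 32284465, had a lowest, median and highest level of 1155, 2349 and 4998 CPM in young mice, of 377, 1387 and 2390.3 CPM in old + vehicle mice, and of 446, 934 and 3097 CPM in old + AP mice. The old groups reached below the young range, and the groups overlapped. In old + vehicle mice, 12 of 13 were below the median of the young mice and 4 were below all of them. The mean fell from 2657 ± 1182 CPM (SD, n = 12) to 1300.4 ± 665 CPM (SD, n = 13), a log2 fold change of -1.03 (SE 0.30, adjusted p = 0.0135). In old + AP mice the mean was 1223 ± 762 CPM (SD, n = 16), a log2 fold change of -1.12 against young mice (SE 0.29, adjusted p = 0.00579), and 11 of 16 mice lay below every young mouse.

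Hba-a2, the second alpha globin copy (chromosome 11, 32296489 to 32297298), ranged from 558 to 2926 CPM in young mice, with a median of 1140.05 CPM. The lowest, median and highest values were 232, 894 and 1636 CPM in old + vehicle mice and 302, 627 and 1919 CPM in old + AP mice. The old groups reached lower than the young one but overlapped with it. The difference passed the test for old + AP against young mice (log2 fold change -0.88, SE 0.30, adjusted p = 0.0351, and between 0.0113 and 0.0709 with 1 mouse left out). For old + vehicle against young mice it was -0.79 (SE 0.31, adjusted p = 0.0690), short of the threshold. With both alpha copies summed to 1 row, both differences passed, at -0.95 for old + vehicle (adjusted p = 0.0235) and -1.03 for old + AP (adjusted p = 0.0104).

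Hbb-bs is the more abundant beta globin gene (chromosome 7, 103826534 to 103828096). Its lowest, median and highest levels were 2279, 4118 and 9114 CPM in young, 869.96, 2556 and 4786 CPM in old + vehicle, and 1076, 2404 and 8227 CPM in old + AP mice. Of the old + vehicle mice, 6 of 13 lay below all young mice. Old + AP mice spread over both other groups, with mice 17 and 19 near the top of the young range. The log2 fold change to young mice was -0.93 for old + vehicle (SE 0.30, adjusted p = 0.0264) and -0.66 for old + AP (SE 0.29, adjusted p = 0.100), and only the former passed. The call for old + vehicle was lost without young mouse 39 (adjusted p = 0.0578), with a skeletal muscle score as a covariate (log2 fold change -0.60, adjusted p = 0.0571) and with the GC slope of each library as a covariate (-0.92, adjusted p = 0.0516).

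Hbb-bt, the other beta globin gene (chromosome 7, 103812524 to 103813996), had 965, 1651 and 3211 CPM as lowest, median and highest level in young mice. The corresponding values were 292, 869 and 1745 CPM in old + vehicle and 379.8, 926 and 3248 CPM in old + AP mice. In old + vehicle mice, 7 of 13 were below every young mouse, more than for any other globin gene. Hbb-bt fell in old + vehicle mice by 1.02 on the log2 scale (SE 0.30, adjusted p = 0.0126). The difference of old + AP from young mice was -0.62 (SE 0.28, adjusted p = 0.118) and did not pass. Without old + AP mouse 19 it was -0.81 (adjusted p = 0.0315).

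**Figure D1:**
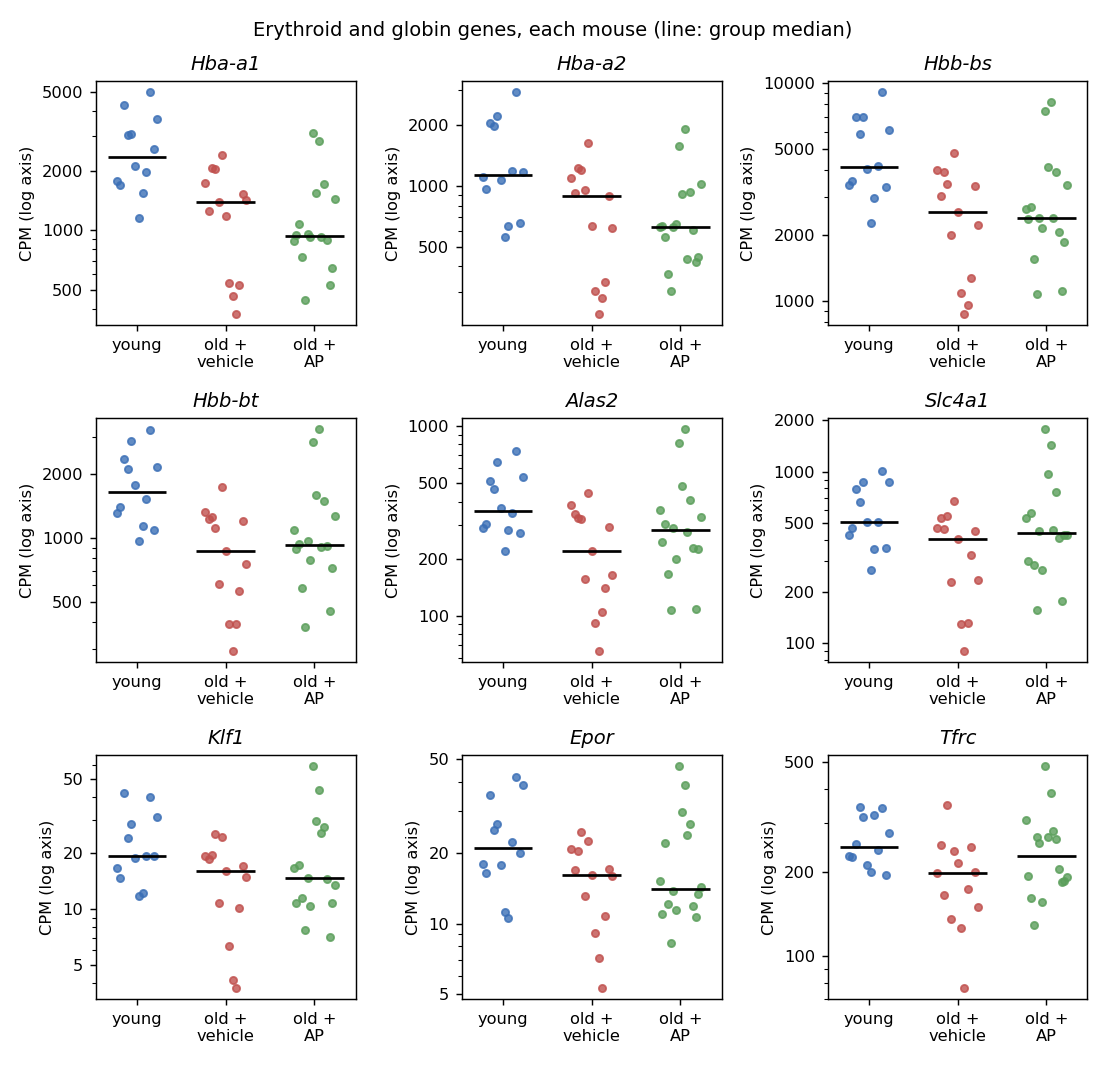
Level of each of the 9 genes in each mouse, in CPM on a log axis, for 12 young, 13 old + vehicle and 16 old + AP mice, with a line at the group median. Globin genes are lower in most old mice, the groups overlap for every gene, and 1 or 2 old + AP mice pass the top of the young range for Hbb-bt, Alas2, Slc4a1, Klf1, Epor and Tfrc.

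Alas2 (chromosome X, 150547375 to 150570638), which makes the first intermediate of heme, had a lowest, median and highest level of 219, 359 and 735 CPM in young mice. The values were 65.1, 219.5 and 446 CPM in old + vehicle and 107, 283 and 962 CPM in old + AP mice. All groups overlapped, 6 of 13 old + vehicle mice lay under every young mouse, and 2 of 16 old + AP mice lay above every one. The log2 fold change to young mice was -0.82 for old + vehicle (SE 0.31, adjusted p = 0.0556) and -0.27 for old + AP mice (SE 0.29, adjusted p = 0.556). Neither passed, although the first did with DESeq2 (adjusted p = 0.0368) and with only the 2 groups in the fit (adjusted p = 0.0335). Over the alternatives that left out 1 mouse, its adjusted p lay between 0.0314 and 0.106.

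Alas1, the form of the enzyme used by other cells, moved the other way. It had 109 ± 16.5 CPM in young (SD, n = 12), 144 ± 37.6 CPM in old + vehicle (SD, n = 13) and 140 ± 24.4 CPM in old + AP mice (SD, n = 16). Its log2 fold changes to young mice of 0.40 (SE 0.11, adjusted p = 0.00771) and 0.36 (SE 0.10, adjusted p = 0.0152) had small adjusted p but did not reach the fold-change limit of 0.5. Within each mouse, Alas2 counts were 3.90 ± 1.62 times those of Alas1 in young (SD, n = 12), 1.69 ± 0.938 times in old + vehicle (SD, n = 13) and 2.44 ± 1.60 times in old + AP mice (SD, n = 16). The log2 ratio was lower in old + vehicle than in young mice by 1.32 (permutation test, p = 0.00031, adjusted over 12 ratio tests 0.00124), and 13 of 13 old + vehicle mice were under the young median. Old + AP mice also had a lower log2 ratio than young mice (difference -0.78, permutation p = 0.0103, adjusted p = 0.0309), with 14 of 16 under the young median. Between the old groups the difference was 0.54 and did not pass (permutation p = 0.0956, adjusted p = 0.143).

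Slc4a1 (chromosome 11, 102348824 to 102366203), the band 3 gene, had 267, 509.96 and 1006 CPM as lowest, median and highest level in young mice. Old + vehicle mice had 89.7, 406 and 675 CPM, and old + AP mice 156, 439.9 and 1771 CPM. It was the member with the widest range, 11.4-fold from the lowest to the highest old + AP mouse. In old + vehicle mice it stood at a log2 fold change of -0.72 to young mice (SE 0.33, adjusted p = 0.128), and old + AP mice had almost the same mean as young ones (589 ± 452 CPM, SD, n = 16, against 593 ± 242 CPM, SD, n = 12). Their log2 fold change of -0.01 (adjusted p = 0.986) had a 95% interval from -0.63 to 0.61, so that these mice leave room for a difference of either sign. Against old + vehicle mice the old + AP mice had a log2 fold change of 0.71 (SE 0.31, 95% interval 0.09 to 1.32, unadjusted p = 0.0297, adjusted p = 0.166), the highest of the members, which did not pass the test. Without old + AP mouse 17 it was 0.47.

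Klf1, the transcription factor (chromosome 8, 84901928 to 84905295), was a low-level gene. Its lowest, median and highest values were 11.8, 19.3 and 42.2 CPM in young, 3.75, 16.1 and 25.4 CPM in old + vehicle, and 7.10, 14.7 and 58.6 CPM in old + AP mice. The 5 old + AP mice above every old + vehicle mouse made up the upper end of their group, while 9 of 16 were under the old + vehicle median. The log2 fold changes were -0.67 for old + vehicle against young (SE 0.31, adjusted p = 0.132), -0.22 for old + AP against young (SE 0.30, adjusted p = 0.651) and 0.45 between the old groups (SE 0.29, adjusted p = 0.344). None passed.

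Epor, the erythropoietin receptor gene (chromosome 9, 21958899 to 21963576), had median levels of 21.04 CPM in young, 16.03 CPM in old + vehicle and 14.02 CPM in old + AP mice. Lowest and highest values were 10.6 and 42.0 CPM, 5.31 and 24.5 CPM, and 8.23 and 46.6 CPM in the same order. The log2 fold change was -0.62 for old + vehicle against young mice (SE 0.27, adjusted p = 0.0944) and -0.29 for old + AP against young mice (SE 0.25, adjusted p = 0.450).

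Tfrc, which brings transferrin-bound iron into red cell precursors and into most dividing cells (chromosome 16, 32608920 to 32632794), varied the least. Its medians were 247 CPM in young mice, with a range from 195 to 343 CPM, 199 CPM in old + vehicle mice, with a range from 76.7 to 349.8 CPM, and 229 CPM in old + AP mice, with a range from 129 to 480.2 CPM. The groups overlapped, and 6 of 13 old + vehicle mice lay below every young mouse. Its difference between old + vehicle and young mice was -0.43 on the log2 scale (SE 0.18, adjusted p = 0.0873).

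Counted over the members, 3 of 9 were called lower in old + vehicle than in young mice (Hba-a1, Hbb-bs and Hbb-bt), where 4.76% of all genes tested were called lower. To be called, a gene had to change by more than 0.5 on the log2 scale at an adjusted p below 0.05. None was called higher, against 4.3% of all genes. All 9 log2 fold changes were below 0, with a median of -0.79, while the median over all genes tested was 0.0066. With the muscle score as a covariate, 2 members were called lower, against 907 of all 19292 genes. All 9 members were still below 0, and their median was -0.43. DESeq2 called 5, adding Hba-a2 and Alas2, and called 5.08% of all genes lower and 5.06% higher. The count also rose to 5 without old + vehicle mouse 7 or 13 or without young mouse 36 or 40, and was 2 without young mouse 39.

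For old + AP against young mice, 2 of 9 were called lower (Hba-a1 and Hba-a2), against 4.85% of all genes, and none higher, against 3.73%. DESeq2 called the same 2, and 5% of all genes lower. The 9 log2 fold changes were again below 0, with a median of -0.29 and the alpha globin genes furthest out. This count moved with single mice. It was 4 without old + AP mouse 17 or 19. It was 1, with the call of Hba-a2 lost, without old + AP mouse 24 or 28 or without young mouse 32, 33, 34 or 39. With the muscle score as a covariate it was 4, against 1065 of all 19292 genes called lower. Both beta globin genes then passed (Hbb-bs -0.75, adjusted p = 0.00921, and Hbb-bt -0.71, adjusted p = 0.0135). The young mice enter both of these comparisons, so that their counts are not separate pieces of evidence. RNA from a whole bone cannot tell fewer cells of a type from less RNA per cell.

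Between the old groups, 0 of 9 members were called by edgeR, which called 0.0726% of all genes. DESeq2 also called 0 of 9, and 216 (1.33%) of the 16299 genes to which it gave an adjusted p. At an unadjusted p under 0.05 there was 1 (Slc4a1), against 23.9% of all genes tested. Both alpha globin genes were close to 0 (Hba-a1 -0.09, 95% interval -0.64 to 0.46, and Hba-a2 -0.08, 95% interval -0.65 to 0.49). The other 7 were above 0, and the median of all 9 was 0.34: Hbb-bs 0.26, Tfrc 0.33, Epor 0.34, Hbb-bt 0.40, Klf1 0.45, Alas2 0.55 and Slc4a1 0.71. Skeletal muscle markers moved with this comparison: 14 of 14 were lower in old + AP than in old + vehicle mice by sign, with 0 called, and their summed level had medians of 52031 CPM in young, 84895 CPM in old + vehicle and 59018 CPM in old + AP mice. With the muscle score as a covariate the log2 fold change was 0.14 for Alas2, 0.26 for Slc4a1 and -0.44 for Hba-a1. The values of Hbb-bs (-0.15), Hbb-bt (-0.0023) and Epor (-0.03) changed sign, and the median of the 9 was -0.0023.

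**Figure D2:**
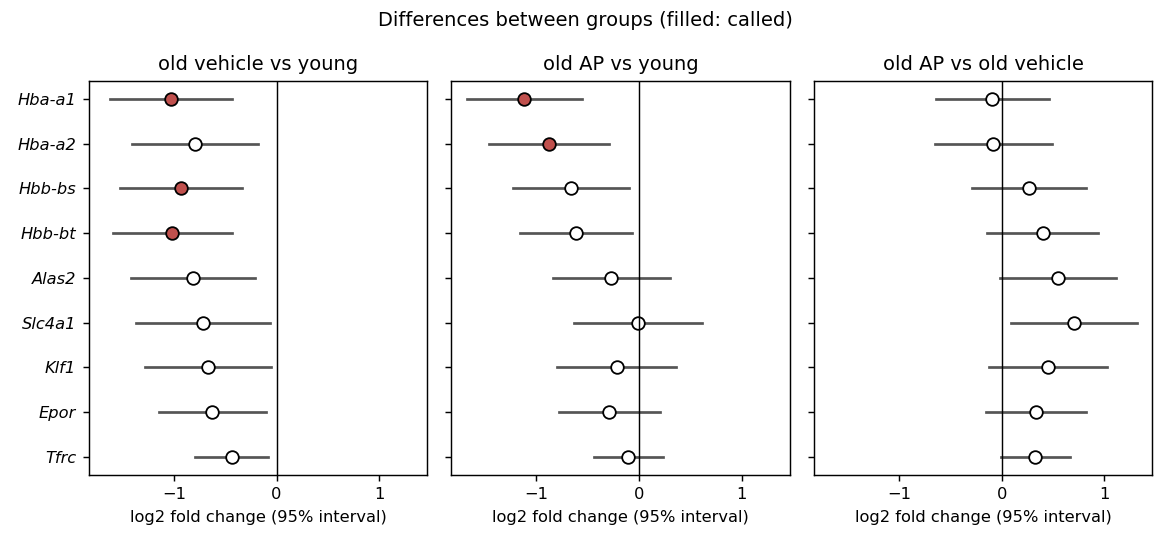
Log2 fold change of each gene in the 3 comparisons with its 95% interval, filled where the gene was called. Old + vehicle mice lie below young mice for every gene, old + AP mice lie below young mice mainly in the globin genes, and between the old groups only the interval of Slc4a1 leaves out 0.

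The alpha and beta globin genes separated in the old + AP mice. A ratio of counts within a library does not depend on its size, and the alpha rows together held 0.593 ± 0.0657 times the counts of the beta rows in young (SD, n = 12), 0.598 ± 0.116 times in old + vehicle (SD, n = 13) and 0.476 ± 0.0555 times in old + AP mice (SD, n = 16). The lowest, median and highest ratios were 0.528, 0.568 and 0.728 in young, 0.469, 0.569 and 0.894 in old + vehicle, and 0.403, 0.476 and 0.605 in old + AP mice. Of the 16 old + AP mice, 15 were below the median of the young mice and 15 below that of the old + vehicle mice, though the groups overlapped. The log2 ratio differed by -0.32 between old + AP and young mice (permutation test, p = 3e-05, adjusted p = 0.00036) and by -0.32 between old + AP and old + vehicle mice (permutation p = 0.00023, adjusted p = 0.00124). Old + vehicle and young mice differed by -0.0025 (permutation p = 0.977).

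This ratio also moved with a property of the libraries that was computed from their own counts, the GC slope. Whether the slope came from library preparation or from the tissue in each sample was not tested. The transcripts of Hba-a1 and Hba-a2 have 57.2% and 56.9% of G and C, and those of Hbb-bs and Hbb-bt 51.3% and 50.8%. A GC slope was computed for each mouse as the change of its log2 CPM, relative to the mean of all mice, per 10% of GC content over 11347 genes. Its mean was -0.05 ± 0.12 in young (SD, n = 12), 0.10 ± 0.14 in old + vehicle (SD, n = 13) and -0.05 ± 0.13 in old + AP mice (SD, n = 16). Within each group the alpha to beta ratio was higher where the GC slope was higher. Pearson's r was 0.69 in young mice (permutation p = 0.0130, rho 0.78, permutation p = 0.00375), 0.72 in old + vehicle mice (permutation p = 0.00501, rho 0.81, permutation p = 0.00127) and 0.59 in old + AP mice (permutation p = 0.0160, rho 0.48, permutation p = 0.0649). Adjusted over these 3 relations the p of r were 0.0160, 0.0150 and 0.0160. Without the 2 mice furthest out in GC slope r was 0.59, 0.61 and 0.37. The part of the ratio that followed the GC slope within groups was then removed, a step chosen after seeing the data. After this, old + AP mice differed from young mice by -0.32 (permutation p = 1e-05, the smallest that these resamples allow, adjusted p = 0.00012). Their difference from old + vehicle mice was -0.17 (permutation p = 0.00562, adjusted p = 0.0225). Old + vehicle mice then differed from young mice by -0.16 (permutation p = 0.0190, adjusted p = 0.0371).

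**Figure D3:**
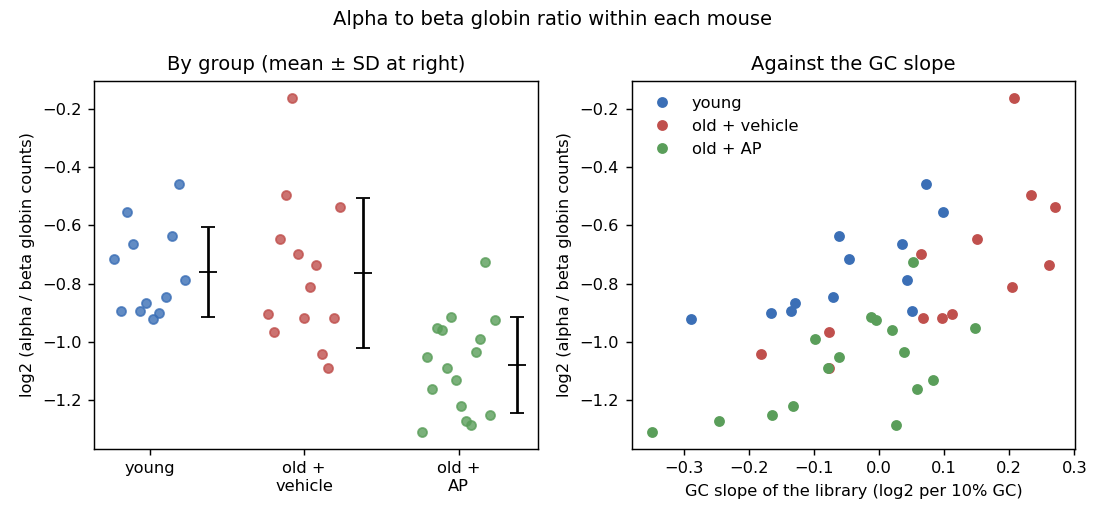
Log2 ratio of alpha globin to beta globin counts in each mouse, by group with the mean and SD at the right of each group (left panel), and against the GC slope of the library in log2 units per 10% GC (right panel). The old + AP mice lie lowest, at -1.08 on average, and at a like GC slope they lie under most young mice.

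The share of the 2 copies within each chain was also compared. Hba-a2 made up 33.6 ± 6.42% of the alpha counts in young (SD, n = 12), 37.7 ± 3.56% in old + vehicle (SD, n = 13) and 38.5 ± 3.65% in old + AP mice (SD, n = 16). Young mouse 40 was lowest at 20.3%. The difference of old + AP from young mice, 4.88 percentage points, passed (permutation p = 0.0143, adjusted p = 0.0343), with 12 of 16 above the young median, but the difference of medians did not (5.25 points, permutation p = 0.0523, adjusted p = 0.105). Hbb-bt made up 27.3 ± 1.82%, 26.1 ± 2.13% and 27.7 ± 1.24% of the beta counts in the same order. Here 16 of 16 old + AP mice were above the old + vehicle median, with a difference of 1.55 percentage points (permutation p = 0.0216, adjusted p = 0.0433). How reads that fit both copies entered these shares is not known. Among old + vehicle mice the lowest Hbb-bt share was 23.1% (mouse 8, GC slope 0.21) and the highest 30.6% (mouse 21, GC slope -0.08). The mean GC slope was 0.10 in old + vehicle and -0.05 in old + AP mice. The part of the GC slope in these shares was not tested.

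The members rose and fell together from mouse to mouse. In young mice, mouse 39 was the highest for 7 of 9 members and mouse 36 the lowest for 7. In old + vehicle mice, mouse 13 was highest for 6 members and mouse 7 for the other 3, and mouse 16 was lowest for 6. In old + AP mice, mouse 17 was highest for 5 and mouse 19 for 4, and mouse 10 was lowest for 7. The spread was wide compared with other genes. The SD of log2 CPM of Alas2 was 0.55 in young, 0.88 in old + vehicle and 0.88 in old + AP mice, larger than for 81.4%, 92.8% and 92.0% of the genes tested in the same group, and that of Tfrc in young mice was 0.30, larger than for 51.2%.

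The median log2 ratio of Hba-a2 to Alas2 in RPKM was 3.58 in young, 3.56 in old + vehicle and 2.98 in old + AP mice. Within groups, log2 CPM of Alas2 went with that of each other member. For Hbb-bt, r was 0.99 and rho at least 0.98 in each group, and for Hbb-bs r was 0.98, 0.97 and 0.99 in young, old + vehicle and old + AP mice. Slc4a1 had r of 0.98, 0.97 and 0.97, and rho was 0.98, 0.96 and 0.98 for Hbb-bs and 0.99, 0.95 and 0.94 for Slc4a1. The permutation p of these was 1e-05, the smallest possible, apart from 2e-05 for rho of Slc4a1 in old + vehicle mice. The alpha globin genes followed less closely, with r of 0.90, 0.88 and 0.95 for Hba-a1 and of 0.92, 0.93 and 0.91 for Hba-a2. Klf1 (0.91, 0.93 and 0.93) and Epor (0.88, 0.90 and 0.90) were alike in this. Spearman's rho of these 4 genes lay between 0.82 and 0.91, and the largest of their permutation p was 0.00115, for rho of Klf1 in young mice. Tfrc was the loosest, with r of 0.70, 0.73 and 0.69 (permutation p = 0.0139, 0.00339 and 0.00326, rho 0.66, 0.60 and 0.62). Without the 2 mice furthest out in Alas2, r for Tfrc was 0.53, 0.44 and 0.38, so that its relation rested largely on those mice, while r of every other member stayed at 0.81 or more. Over the 24 relations the largest adjusted p was 0.0139 for r and 0.0347 for rho. The CPM of all genes of a mouse share that library's size and makeup.

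**Figure D4:**
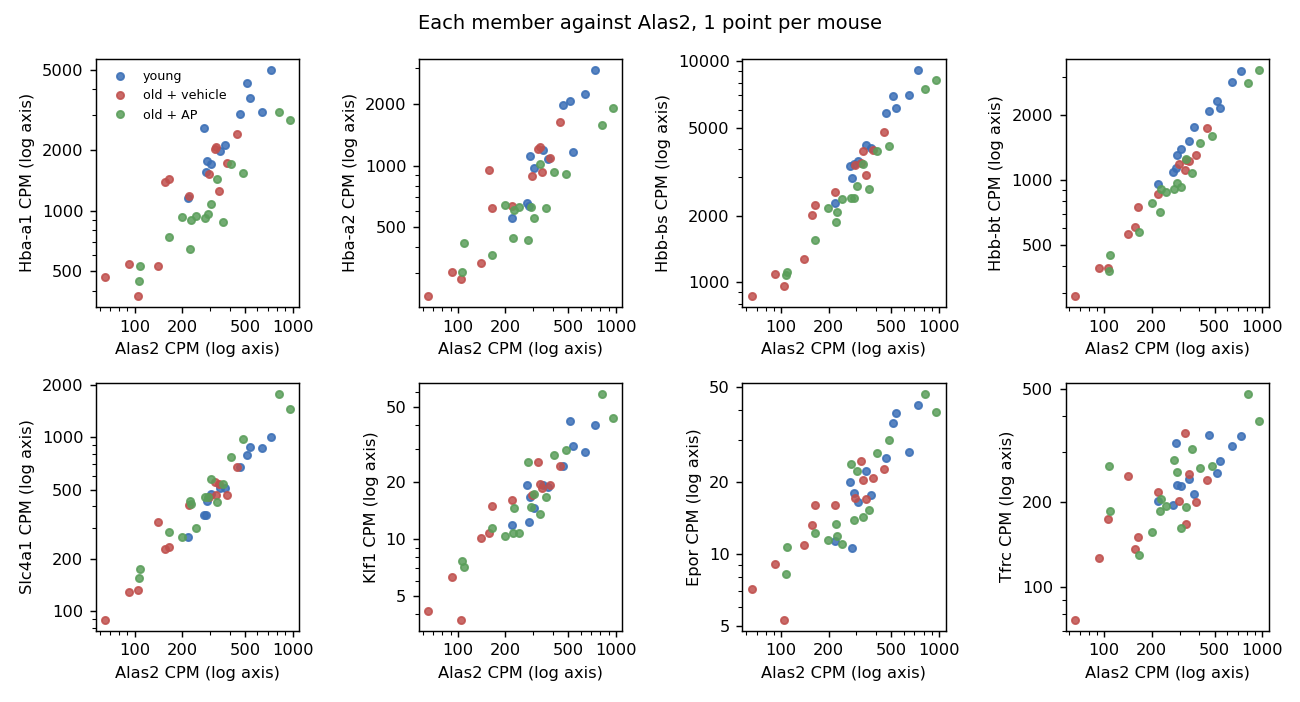
Each of the other 8 genes against Alas2, both in CPM on log axes, with 1 point for each of the 41 mice coloured by group. Hbb-bt and Hbb-bs lie closest to a line, the old + AP mice lie lower than the young mice for the alpha globin genes at the same Alas2 level, and Tfrc scatters most.

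Among all 19292 genes tested, the likeness to Alas2 was measured as the Pearson correlation of log2 CPM over the 41 mice after the group means were taken out, as a description. The 10 genes outside the members with the highest likeness included Ube2l6 (0.986), Trim10 (0.982), Ypel4 (0.974), Tspo2 (0.972), Fam46c (0.970), Ermap (0.969), Hemgn (0.969) and Rhd (0.969). Hbb-bt ranked 2, Hbb-bs 5 and Slc4a1 9 among all genes. Klf1 ranked 57, Hba-a1 77, Hba-a2 86 and Epor 117, and Tfrc ranked 1212. In total 91 genes outside the members had a likeness above 0.9.

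Genes of the pathway were also counted in lists set by role. The lists of membrane, heme, transcription factor, erythropoietin and iron genes hold the members Slc4a1, Alas2, Klf1, Epor and Tfrc, in that order. Some genes, such as Slc25a37, recur across lists, so that the list counts are not separate pieces of evidence. Of all genes, 4.76% were called lower in old + vehicle than in young mice by edgeR and 5.08% by DESeq2. In the list for late erythroid maturation, 6 of 27 genes were called lower in old + vehicle than in young mice (10 by DESeq2), 25 of 27 were below 0, and the median log2 fold change was -0.57. The called genes with the largest changes included Trim58, a ubiquitin ligase that acts as erythroblasts shed their nucleus (-0.94, SE 0.30, adjusted p = 0.0246), and Ypel4 (-0.88, SE 0.29, adjusted p = 0.0297). In the list for the red cell membrane and skeleton, 2 of 22 were called lower (4 by DESeq2), Rhd, an Rh blood group gene (-0.86, SE 0.31, adjusted p = 0.0464), and the urea transporter gene Slc14a1 (-0.79, SE 0.26, adjusted p = 0.0260). The median of that list was -0.54. Once the muscle score was a covariate, 0 genes of either list were called, against 907 of all 19292 genes called lower. The medians were then -0.31 for late maturation and -0.25 for the membrane. In that fit 12 and 4 genes had an unadjusted p under 0.05, against 7395 of all 19292 genes. Against young mice, old + AP mice had no called gene in either list, and their medians were -0.10 for late maturation and 0.06 for the membrane.

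Heme synthesis and mitochondrial iron genes had no call by edgeR in any comparison, and DESeq2 called 2 lower in old + vehicle than in young mice, Alas2 and the mitochondrial iron importer gene Slc25a37. Of 17 tested, 14 were below 0 in old + vehicle against young mice, with a median of -0.21. At an unadjusted p under 0.05 there were 8, among them Alas1, which was higher (0.40). Of all genes tested, 31.8% were at that level. Erythroid transcription factors had no call by either tool, with 13 of 18 below 0 and a median of -0.22. Iron uptake, storage and export had 0 calls among 14 genes by either tool and a median of -0.07. Of 3 embryonic or minor globin genes tested none was called, and the embryonic genes Hbb-bh1, Hbb-bh2 and Hbb-y had at most 8, 5 and 15 counts in any mouse, too few to test. The globin chaperone Ahsp was not analysed here.

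In the list of 14 genes for erythropoietin signalling, 1 was called higher in old + vehicle than in young mice, and 2 were called higher and 1 lower in old + AP than in young mice. Of all genes, 4.3% were called higher in old + vehicle mice, and 3.73% higher and 4.85% lower in old + AP mice. DESeq2 also called Epo, the erythropoietin gene, lower in old + AP than in young mice, where edgeR gave a log2 fold change of -0.72 (SE 0.27, adjusted p = 0.0603). Socs3, a feedback inhibitor of cytokine receptors, was higher in old + vehicle (log2 fold change 0.92, SE 0.20, adjusted p = 0.00114) and in old + AP mice (0.74, SE 0.19, adjusted p = 0.00661) than in young mice. Socs2, a related inhibitor, was lower in old + AP than in young mice (-0.69, SE 0.15, adjusted p = 0.00137). Erfe, the gene of erythroferrone, was called higher in old + AP than in young mice (1.91, SE 0.50, adjusted p = 0.00701). That value came from a few mice: the median was 0.928 CPM in young and 1.24 CPM in old + AP mice, and old + AP mouse 24 had 20.7 CPM.

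Between the old groups no gene of these lists was called by edgeR, and DESeq2 called Slc14a1 and, in the late maturation list, Car1. DESeq2 called 1.33% of the 16299 genes to which it gave an adjusted p. By sign, 19 of 22 membrane genes, 24 of 27 late maturation genes, 14 of 18 transcription factor genes and 14 of 17 heme genes were higher in old + AP mice. The medians were 0.68, 0.41, 0.41 and 0.26, where the median over all genes was -0.0037. At an unadjusted p under 0.05 there were 16, 14, 9 and 7 genes of these lists, against 23.9% of all genes tested. Skeletal muscle markers moved with these lists, 14 of 14 being lower by sign in old + AP than in old + vehicle mice, with summed medians of 59018 and 84895 CPM. In the fit with the muscle score the list medians were 0.27, 0.16, 0.14 and 0.14 in the same order. There 1, 1, 2 and 4 genes had an unadjusted p under 0.05, against 3435 of all 19292 genes in that fit.

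**Figure D5:**
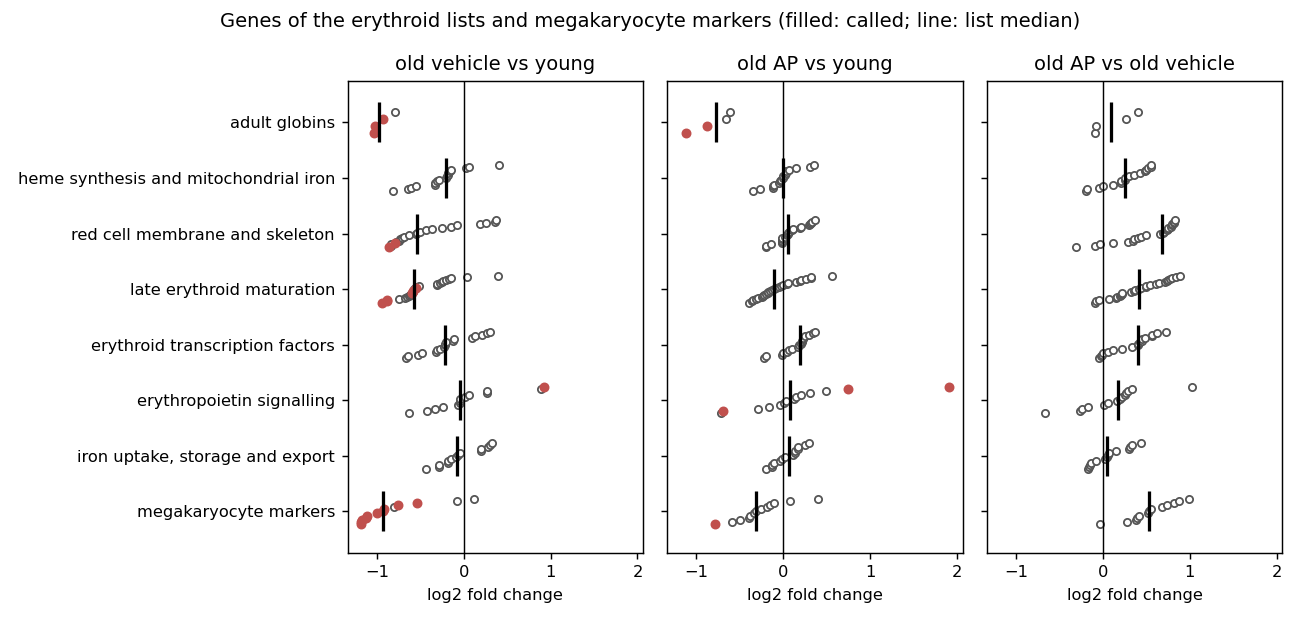
Log2 fold change of each gene in 7 lists of the red cell pathway and in the megakaryocyte markers, for the 3 comparisons, filled where called, with a line at the list's median. Adult globins lie below 0 in both comparisons with young mice, while the medians of membrane and maturation genes are near 0 for old + AP against young mice.

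Markers of other cells were counted in the same way, beside 4.76% of all genes called lower in old + vehicle and 4.85% in old + AP than in young mice. Megakaryocyte markers, of the platelet lineage, had 10 of 13 called lower in old + vehicle than in young mice, led by Gp6 (-1.18), Clec1b (-1.18) and Gp9 (-1.17), and 1 of 13 in old + AP mice. B cell markers had 8 of 12 called lower in old + vehicle mice, led by Rag1 (-1.75), and 1 of 12 in old + AP mice. Between the old groups, 12 of 13 megakaryocyte and 12 of 12 B cell markers were higher by sign in old + AP mice. Of these, edgeR called 0 and DESeq2 called 4 and 2, beside 1.33% of the 16299 genes to which DESeq2 gave an adjusted p. Of the neutrophil granule markers, 1 of 14 was called higher in old + vehicle than in young mice, against 4.3% of all genes, and 4 of 14 in old + AP than in young mice, against 3.73%. DESeq2 called 7 in the latter comparison, and 4.42% of all genes higher. In the fit with the muscle score edgeR called 12 of 14 higher in old + vehicle than in young mice, against 874 of all 19292 genes. In old + AP against young mice that fit called 3 of 14 higher, against 889 of all 19292 genes. Of 13 macrophage markers, 2 were called lower in old + vehicle mice (Cd163 and Spic), and 1 in old + AP mice (Cd163). Summed, they had medians of 1196 CPM in young, 1191 CPM in old + vehicle and 1174 CPM in old + AP mice. Of the cell cycle genes, 0 of 12 were called by edgeR in any comparison, DESeq2 called Ccnb1 in old + AP against young mice, and 12 of 12 were higher by sign in old + AP than in old + vehicle mice (median 0.44). Endothelial and osteoclast markers, 8 of each, had no call by either tool. Osteoblast and osteocyte markers had 4 of 13 called lower and 2 higher in old + vehicle than in young mice, led by Bglap (-1.71), and 8 of 13 called lower and 2 higher in old + AP than in young mice, led by the same gene (-2.01). Their summed level had medians of 68513 CPM in young, 40667 CPM in old + vehicle and 32581 CPM in old + AP mice. The part of these other cells in the levels of the red cell genes was not tested.

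For muscle the relation was measured within groups. The mean log2 CPM of 14 muscle markers fell where Alas2 rose: r was -0.82 in young mice (permutation p = 0.00192, rho -0.85, permutation p = 0.00073, r without the 2 mice furthest out -0.84), -0.45 in old + vehicle mice (permutation p = 0.122, rho -0.41, permutation p = 0.170, r without 2 mice -0.32) and -0.66 in old + AP mice (permutation p = 0.00598, rho -0.66, permutation p = 0.00706, r without 2 mice -0.40). Adjusted over the 3 groups, the p of r were 0.00576, 0.122 and 0.00897. Of the 14 muscle markers, 3 were called higher in old + vehicle than in young mice (Acta1, Myh7 and Atp2a1), against 4.3% of all genes. Measured with the muscle score in the fit, the 3 globin differences called between old + vehicle and young mice became -0.75 for Hba-a1 (adjusted p = 0.0210), -0.71 for Hbb-bt (adjusted p = 0.0249) and -0.60 for Hbb-bs (adjusted p = 0.0571). Of the members that had not been called, Alas2 became -0.51, Hba-a2 -0.43, Klf1 -0.39, Slc4a1 -0.38, and Epor and Tfrc -0.32.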

How the data were processed

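Libraries from the tibia diaphyses of 41 mice were compared in 3 groups taken from the sample labels. The authors deposited counts of reads per gene, not normalized, with exon lengths for 43346 genes. The submitters' processing notes name TopHat2 2.0.6, HTSeq and the build GRCm38. The annotation release, the strand setting and the treatment of reads that fit 2 genes are not given in the sources used here. The labels name no batch, and give the old mice as 20 months old, the age when the 4 months of treatment began. All columns were used.

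In edgeR 4.0.16 (R 4.3.3), genes were filtered by expression and scaled by TMM. All 3 groups entered 1 quasi-likelihood model with Benjamini-Hochberg adjustment over 19292 genes, and a gene was called if it changed by over 0.5 (log2) at an adjusted p below 0.05. CPM use the TMM library sizes, and log2 CPM a prior count of 2. Ratios and correlations were tested by two-sided permutation with 100000 resamples. DESeq2 1.42.0 was an alternative, as were its size factors, no filter, 2-group fits, library sizes without the adult globins, copies summed, a muscle score and each mouse left out. The GC slope was added after seeing the data. The members and 17 gene lists were chosen with earlier results of these data known. Named were the members, up to 3 genes called in each direction for each list and comparison, the 10 genes most like Alas2, Alas1, Cdkn2a and list markers. Some genes that this rule names are not reported here. Genes that DESeq2 alone called were named after their values were seen. Of 231 list entries, 230 were matched. The scripts were tested on simulated data. With at least 37028959 counts per mouse, no 2 libraries of a group agreed within counting noise, so each was kept as 1 mouse. Each mouse has 1 library, so that the spread between mice and that of library preparation cannot be told apart.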

Additional observations from a re-analysis of the deposited data

How the results depend on the processing

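No paired analysis was possible because the groups share no mouse numbers. The number of members called lower in old + vehicle against young mice was 3, became 5 with DESeq2, 4 with the 2 groups alone and 2 with the muscle score, with the GC slope or with the copies summed, and lay between 2 and 5 with 1 mouse left out. For old + AP against young mice it was 2, became 1 with the copies summed, where both called genes are the same row and that row was still called, and 4 with the muscle score, and lay between 1 and 4 with 1 mouse left out. Between the old groups it was 0 under each of these alternatives. With the muscle score the old + AP to old + vehicle log2 fold change turned to -0.15 for Hbb-bs, -0.0023 for Hbb-bt and -0.032 for Epor, and with the GC slope that of Hba-a1 turned to 0.11. None of these 4 had passed a test. With 1 mouse left out, log2 fold changes near 0 crossed it: Hba-a1 lay between -0.27 and 0.016 and Hba-a2 between -0.26 and 0.050 in old + AP against old + vehicle mice, and Slc4a1 between -0.25 and 0.059 in old + AP against young mice. The alpha to beta difference between old + vehicle and young mice was 0.0037 by medians and -0.16, past the threshold, with the GC slope removed. The difference of Hba-a2 shares between old + AP and young mice was 5.25 percentage points by medians and no longer passed. Of the 10 genes most like Alas2, 5 were shared with Spearman's measure. Leaving out 1 mouse kept the 6 ratio differences that passed at a permutation p of at most 0.0464, unadjusted. The causes were not tested.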
